A study of Homo sapiens with 12 samples.

Results

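The genes described here encode the enzymes and carriers of the tricarboxylic acid (TCA) cycle, the entry of pyruvate through pyruvate dehydrogenase, the entry of glutamate and aspartate, and the export of citrate from mitochondria. They form a list of 38 genes by pathway role, whose symbols were matched to the identifiers of the count tables. No measured value enters the rule, but the list was drawn up with earlier results of these data known. All 38 matched 1 identifier each among 57500 genes in the tables, and all 38 were among the 16402 genes that passed the filter on low counts. Poly(A)-selected RNA was sequenced from 12 libraries of THP-1, a human monocytic leukaemia line. Every group carried the same lentiviral non-target shRNA and was kept in buffered DMEM, so the pH of the medium was held while the CO2 level differed. The 4 groups, with 3 libraries each, were 5% CO2 (normocapnia) for 4 hours, 10% CO2 (buffered hypercapnia) for 4 hours, and each of these with LPS (bacterial lipopolysaccharide) at 2.5 µg/ml for the last 2 hours. THP-1 is 1 leukaemia line, and no label says that the replicates of a group were cultured apart. The p-values therefore refer to the spread among the 12 libraries, and that spread may be technical.

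The cycle joins acetyl-CoA to oxaloacetate to make citrate, then returns to oxaloacetate while its dehydrogenases hand electrons to the respiratory chain. Pyruvate enters mitochondria through a carrier and is turned into acetyl-CoA by pyruvate dehydrogenase, which kinases switch off and phosphatases switch on. Carboxylases, malic enzymes and transaminases add or remove intermediates, and in LPS-stimulated macrophages the cycle is known to be rewired so that citrate and succinate are used outside it.

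The libraries held 17.1 to 22.2 M counts, so 3 counts in a library corresponded to 0.135 to 0.175 CPM (counts per M counts of the library, scaled by TMM). Of 20 monocytic marker genes, 18 passed the filter, and their summed level was 2752 to 3380 CPM at 5% CO2, 2708 to 3066 at 10% CO2, 2766 to 2953 at 5% CO2 with LPS and 2449 to 2579 at 10% CO2 with LPS. ELANE, at a mean of 1090 CPM at 5% CO2, and CEBPA, at 742 CPM, led that list, and CD14 was at 10.9 CPM. CEBPA was at 606 CPM at 10% CO2, 170 at 5% CO2 with LPS and 92.2 at 10% CO2 with LPS, so the sum largely follows it. SPI1 went the other way with LPS, from 302 to 459 CPM at 5% CO2 and from 278 to 409 at 10% CO2. With LPS, 3 of the 18 rose and 3 fell at 5% CO2, where 24.9% of all genes tested were called. At 10% CO2, 3 rose and 4 fell, where 35.2% of all genes were called. With CO2 in the presence of LPS 2 of the 18 fell, where 8.75% of all genes were called. The part of these markers in the results was not tested. Summed erythroid markers reached at most 0.179 CPM in a library, T cell markers 2.89, B cell markers 5.6, epithelial markers 3 and fibroblast markers 3.79. Genes of the mitochondrial genome took 1.31 to 1.96% of the counts at 5% CO2 and 2.01 to 3.05% at 10% CO2. With LPS, their share was 1.28 to 1.78% at 5% CO2 and 2.28 to 4.15% at 10% CO2, and did not overlap between CO2 levels in either case. In bulk libraries, fewer cells of a kind and less RNA per cell cannot be told apart.

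With CO2 raised, and averaged over LPS, the transaminase genes GOT1 and GOT2, the malic enzyme ME2, PCK2, the pyruvate carrier gene MPC1 and the succinyl-CoA synthetase genes SUCLG1 and SUCLA2 were among those that rose. The pyruvate dehydrogenase kinase PDK1, the phosphatase PDP1 and IDH2 fell. A gene was called at an adjusted p under 0.05 over all genes tested (edgeR's quasi-likelihood test with Benjamini-Hochberg adjustment). Without LPS, 1 of the 38 genes was called, GOT1, which was higher, 2.63% of the 38, against 1.46% of all genes tested (0.799% higher and 0.665% lower). With LPS, 5 were called, all higher (IDH3A, MPC1, ME2, GOT1 and GOT2), 13.2% of the 38, against 8.75% of all genes (4.29% higher and 4.46% lower). With the replicate number as a block, which only in part pairs the libraries, 6 were higher and 2 lower. Averaged over the LPS levels, 10 rose and 3 fell, 34.2% of the 38, against 16.7% of all genes (8.06% higher and 8.68% lower). The median log2 difference of the 38 in that average was 0.07, beside -0.01 over all genes. The average uses the libraries of both single comparisons and is no separate evidence. The mitochondrial share of the counts differed between CO2 levels, and its part in the calls was not tested. With the genes of the mitochondrial genome left out of the library totals, the average gave 13 calls, 10 of them higher. The share of all genes called is not given for that fit or for the fit with the block.

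LPS lowered IDH1, both pyruvate dehydrogenase phosphatases and the kinase PDK2, and raised citrate synthase, the pyruvate carrier gene MPC1 and 2 pyruvate dehydrogenase subunits. At 5% CO2, 6 of the 38 genes rose and 4 fell, 26.3%, against 24.9% of all genes tested (11.8% higher and 13.1% lower). At 10% CO2, 8 rose and 5 fell, 34.2%, against 35.2% of all genes (16.6% higher and 18.6% lower). The 38 genes were thus called with LPS about as often as all genes. Their median log2 difference was 0.11 at 5% CO2 and 0.12 at 10% CO2, beside -0.01 and -0.02 over all genes. Over the 6 comparisons, interaction and average included, 23 of the 38 genes (60.5%) were called at least once, against 47.4% of all genes tested. The comparisons share groups: the 5% CO2 libraries are the reference of both CO2 without LPS and LPS at 5% CO2. The summed level of the 38 genes was 2920 to 3125 CPM at 5% CO2, 2901 to 3142 at 10% CO2, 3065 to 3353 at 5% CO2 with LPS and 3076 to 3323 at 10% CO2 with LPS.

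**Figure D1:**
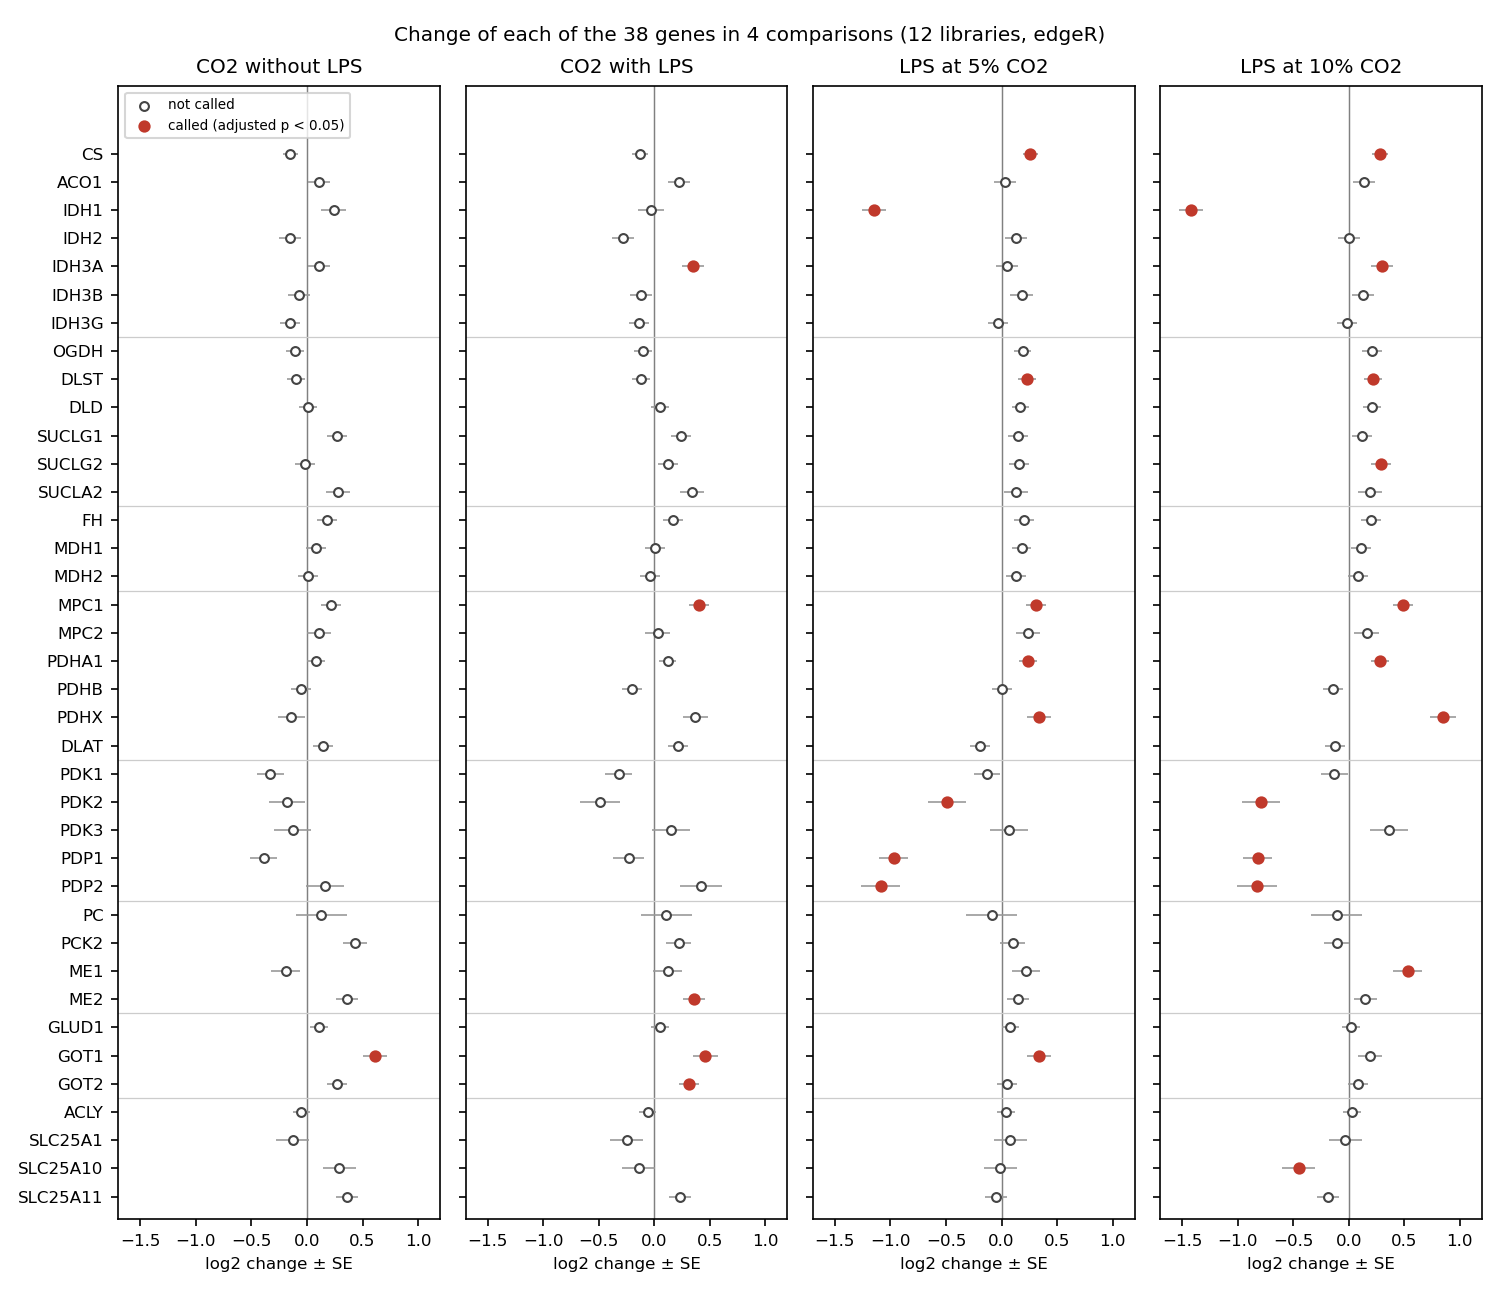
Log2 difference with its standard error for each of the 38 genes (vertical axis, ordered by role) in the 4 single comparisons, with filled points for an adjusted p under 0.05. IDH1 has the lowest values, at -1.15 and -1.42 for LPS, and GOT1 is the only filled point for CO2 without LPS, at 0.61.

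Citrate synthase and the isocitrate dehydrogenases moved in different directions. IDH1, the NADP-dependent isocitrate dehydrogenase of the cytosol and peroxisomes (chromosome 2, 208236227 to 208266074 on GRCh38), had the largest difference of the 38 in both LPS comparisons. It was at 68.0, 67.7 and 75.8 CPM at 5% CO2, 27.0, 31.2 and 37.3 at 5% CO2 with LPS, 83.5, 91.4 and 75.1 at 10% CO2, and 28.5, 31.7 and 33.1 at 10% CO2 with LPS. All 6 libraries with LPS lay below all 6 without. The log2 difference was -1.15 ± 0.11 (SE, adjusted p = 3.01e-07) at 5% CO2 and -1.42 ± 0.11 (adjusted p = 1.07e-08) at 10% CO2, and both held in every alternative setting. CS, which makes citrate and opens the cycle, was at 202, 185 and 193 CPM at 5% CO2, 228, 229 and 240 at 5% CO2 with LPS, 173, 179 and 173 at 10% CO2, and 213, 213 and 212 at 10% CO2 with LPS. Its libraries with LPS all exceeded those without. CS rose by 0.26 ± 0.07 (adjusted p = 0.00868) at 5% CO2 and 0.28 ± 0.07 (adjusted p = 0.00365) at 10% CO2. The first of these calls was lost without 5% CO2 replicate 2 (adjusted p = 0.0509).

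IDH3A, the catalytic subunit of the NAD-dependent isocitrate dehydrogenase, was at its highest in the group with both treatments. It was at 29.0, 26.1 and 29.2 CPM at 5% CO2, 29.4, 27.5 and 30.5 at 5% CO2 with LPS, 32.3, 31.7 and 26.7 at 10% CO2, and 37.5, 37.1 and 36.8 at 10% CO2 with LPS. The last 3 values lie above the other 9, but the difference between differences was not called (interaction 0.24 ± 0.14, adjusted p = 0.882). IDH3A was higher at 10% CO2 with LPS, by 0.35 ± 0.10 (adjusted p = 0.0325) against 5% CO2 with LPS and by 0.30 ± 0.10 (adjusted p = 0.0236) against 10% CO2. The first call was lost without either of replicates 1 and 2 at 5% CO2 with LPS or any library of 10% CO2 with LPS (adjusted p up to 0.128). The second was lost without 10% CO2 replicate 3 or any library of 10% CO2 with LPS (up to 0.112), and both were lost without the low-count filter. IDH3B and IDH3G, the other subunits of the same enzyme, were called in no comparison. SSR4 on the opposite strand shares 10.2% of IDH3G's exon bases and held 241% as many counts, and its part was not tested. IDH2, the mitochondrial NADP-dependent enzyme, was lower with CO2 averaged over LPS, by a log2 difference of -0.21 ± 0.07 (adjusted p = 0.037), a call lost in 8 of 12 fits that left out 1 library. ACO1, which interconverts citrate and isocitrate in the cytosol, was called in no comparison.

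At the succinyl-CoA step, SUCLG1 and SUCLA2 rose with CO2 averaged over LPS, and SUCLG2 did not pass the test in any CO2 comparison (averaged 0.05, adjusted p = 0.631). Succinyl-CoA synthetase pairs the shared subunit SUCLG1 with either SUCLA2, which makes it ATP-forming, or SUCLG2, which makes it GTP-forming. SUCLA2 was at 39.0, 34.0 and 40.2 CPM at 5% CO2, 48.7, 47.8 and 41.0 at 10% CO2, 37.6, 37.9 and 48.4 at 5% CO2 with LPS, and 52.8, 54.7 and 49.4 at 10% CO2 with LPS. The CO2 levels did not overlap, without LPS or with it, and neither single comparison was called (adjusted p = 0.199 without LPS and 0.063 with it). Averaged over LPS, SUCLA2 rose by 0.31 ± 0.08 (adjusted p = 0.0123) and SUCLG1 by 0.26 ± 0.07 (adjusted p = 0.0127), and both calls held in every alternative setting. SUCLG2 rose with LPS at 10% CO2, by 0.29 ± 0.09 (adjusted p = 0.0172). With a correction for the GC content of exons that difference was 0.17 (adjusted p = 0.0638), and it was also not called without 10% CO2 replicate 2 or 3 or 10% CO2 with LPS replicate 2 (up to 0.0692).

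The oxoglutarate dehydrogenase complex turns 2-oxoglutarate into succinyl-CoA. DLST, its core subunit, was higher with LPS, by 0.23 ± 0.08 (adjusted p = 0.0373) at 5% CO2 and 0.22 ± 0.08 (adjusted p = 0.0419) at 10% CO2. Each of these calls was lost in 8 of 12 fits that left out 1 library. OGDH, the subunit that binds the substrate, was at 138, 142 and 117 CPM at 5% CO2, 159, 150 and 144 at 5% CO2 with LPS, 117, 120 and 130 at 10% CO2, and 139, 145 and 141 at 10% CO2 with LPS. Its groups with and without LPS did not overlap at either CO2 level. OGDH was not called, at 0.19 ± 0.08 (adjusted p = 0.112) and 0.21 ± 0.09 (adjusted p = 0.0626). DLD, the subunit shared with pyruvate dehydrogenase, was called in no comparison.

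The fumarate and malate steps held no called gene. FH, which adds water to fumarate, was at 68.8, 77.0 and 71.8 CPM at 5% CO2, 75.9, 91.2 and 78.9 at 10% CO2, 75.0, 87.8 and 87.4 at 5% CO2 with LPS, and 87.0, 96.4 and 98.9 at 10% CO2 with LPS. All of these groups overlapped in the single comparisons. Averaged over LPS, its CO2 difference was 0.18 ± 0.07 (adjusted p = 0.0799). The cytosolic and mitochondrial malate dehydrogenases MDH1 and MDH2 differed by at most 0.18 in the 4 single comparisons, with adjusted p of 0.191 or more.

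MPC1 was the gene of pyruvate entry that rose with both treatments. MPC1 (chromosome 6, 166364919 to 166383013), which with MPC2 forms the mitochondrial pyruvate carrier, was at 35.2, 39.2 and 35.6 CPM at 5% CO2, 40.9, 45.9 and 41.1 at 10% CO2, 42.4, 45.0 and 48.5 at 5% CO2 with LPS, and 57.0, 64.9 and 57.9 at 10% CO2 with LPS. The group with both treatments lay above every other library. MPC1 rose with LPS by 0.31 ± 0.09 (adjusted p = 0.0221) at 5% CO2 and 0.49 ± 0.09 (adjusted p = 0.000415) at 10% CO2, and with CO2 by 0.40 ± 0.09 (adjusted p = 0.0145) in the presence of LPS. Averaged over LPS, the CO2 difference was 0.31 ± 0.07 (adjusted p = 0.00459). Without LPS the CO2 groups did not overlap, but the difference, 0.22 ± 0.09, was not called (adjusted p = 0.238). The interaction was not called either (0.18 ± 0.13, adjusted p = 0.926). The call at 5% CO2 was lost without 5% CO2 replicate 1 or 3 or 5% CO2 with LPS replicate 3 (up to 0.106), and the CO2 call with LPS without replicate 1 or 2 at 5% CO2 with LPS or replicate 2 at 10% CO2 with LPS (up to 0.0921). MPC2 was not called, with values between 0.03 and 0.24 in the 4 single comparisons. DCAF6 on the opposite strand shares 22.5% of MPC2's exon bases and held 136% as many counts, and its part was not tested.

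Of the pyruvate dehydrogenase subunits, PDHX and PDHA1 rose with LPS. PDHX (chromosome 11, 34915829 to 35020591) anchors the DLD subunit in the complex. It was at 40.5, 39.7 and 39.2 CPM at 5% CO2, 53.0, 47.3 and 51.3 at 5% CO2 with LPS, 37.9, 39.5 and 30.9 at 10% CO2, and 58.2, 77.5 and 60.0 at 10% CO2 with LPS. The libraries with LPS exceeded all of those without, and those at 10% CO2 with LPS were the highest. PDHX rose with LPS by 0.34 ± 0.11 (adjusted p = 0.0339) at 5% CO2 and 0.85 ± 0.12 (adjusted p = 9.40e-06) at 10% CO2. The first call was lost without any 1 library of 5% CO2 or without 5% CO2 with LPS replicate 1 or 3 (up to 0.108). PDHX shares 259 exon bases, 6.89% of its length, with APIP on the opposite strand, and the strand setting of the counting is not given in the sources used here. APIP held 51.2% as many counts and was itself higher with LPS at 10% CO2, by 0.44 ± 0.11 (adjusted p = 0.00263). Its part in the PDHX values was not tested.

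PDHA1, the catalytic subunit that the kinases phosphorylate, was at 81.4, 79.4 and 73.7 CPM at 5% CO2, 93.0, 88.5 and 94.6 at 5% CO2 with LPS, 81.3, 85.8 and 80.9 at 10% CO2, and 100, 104 and 95.6 at 10% CO2 with LPS. It rose by 0.24 ± 0.08 (adjusted p = 0.0336) at 5% CO2 and 0.28 ± 0.08 (adjusted p = 0.0097) at 10% CO2, with no overlap in either case. The first call was lost without replicate 2 or 3 of 5% CO2 or replicate 1 or 3 of 5% CO2 with LPS (up to 0.14), and both were lost without the low-count filter. DLAT, the acetyl-transferring subunit, was higher with CO2 averaged over LPS, by 0.18 ± 0.06 (adjusted p = 0.0492), a call lost in 9 of 12 fits that left out 1 library. PDHB, the partner of PDHA1 in the same subunit complex, was called in no comparison and had values between -0.20 and 0.00 in the 4 single ones.

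Both phosphatases that reactivate pyruvate dehydrogenase fell with LPS. PDP1 was at 18, 17 and 18.5 CPM at 5% CO2, 9.70, 9.19 and 8.4 at 5% CO2 with LPS, 15.7, 12.7 and 12.5 at 10% CO2, and 6.85, 7.88 and 8.43 at 10% CO2 with LPS. PDP2 (chromosome 16, 66878589 to 66895754) was at 8.98, 8.09 and 12.1 CPM at 5% CO2, 4.10, 4.13 and 5.50 at 5% CO2 with LPS, 12.8, 10.6 and 9.26 at 10% CO2, and 6.44, 6.33 and 5.67 at 10% CO2 with LPS. For both genes every library with LPS lay below every library without. The log2 difference of PDP1 was -0.97 ± 0.13 (adjusted p = 1.06e-05) at 5% CO2 and -0.82 ± 0.13 (adjusted p = 7.30e-05) at 10% CO2. That of PDP2 was -1.09 ± 0.18 (adjusted p = 0.00015) and -0.83 ± 0.18 (adjusted p = 0.00108), and these 4 calls held in every alternative setting. PDP1 was also lower with CO2 averaged over LPS (-0.31 ± 0.09, adjusted p = 0.0262), a call lost in 6 of 12 fits that left out 1 library. PDP2 had the opposite sign there, at 0.29 ± 0.13 (adjusted p = 0.124).

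Of the kinases that switch pyruvate dehydrogenase off, PDK2 was called with LPS and PDK1 with CO2 averaged over LPS. PDK2 was at 12.5, 14.2 and 11.3 CPM at 5% CO2, 10.1, 9.45 and 7.56 at 5% CO2 with LPS, 9.14, 11.4 and 12.9 at 10% CO2, and 5.67, 5.55 and 7.96 at 10% CO2 with LPS. It fell with LPS, with log2 differences of -0.49 ± 0.17 (adjusted p = 0.0383) at 5% CO2 and -0.79 ± 0.17 (adjusted p = 0.00134) at 10% CO2. The first was lost without replicate 1 or 2 of 5% CO2 or replicate 2 or 3 of 5% CO2 with LPS (up to 0.177), and the second held in every alternative setting. SAMD14 on the opposite strand shares 38.6% of PDK2's exon bases and held 15% as many counts; its part in the result was not tested. PDK1 was at 30.7, 30.1 and 34.2 CPM at 5% CO2, 27.7, 24.4 and 23.7 at 10% CO2, 27.9, 33.1 and 25.7 at 5% CO2 with LPS, and 22.3, 20.7 and 26.1 at 10% CO2 with LPS. Its CO2 groups were apart without LPS and overlapped with it, and neither single comparison was called (adjusted p = 0.152 and 0.0912). PDK1, a known target of hypoxia signalling, was lower with CO2 averaged over LPS (-0.32 ± 0.08, adjusted p = 0.0123), and that call held in every alternative setting. PDK2 had a similar difference there, -0.33 ± 0.12, but was not called (adjusted p = 0.0641). PDK3 was called in no comparison, at 0.36 ± 0.17 (adjusted p = 0.112) for LPS at 10% CO2.

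**Figure D2:**
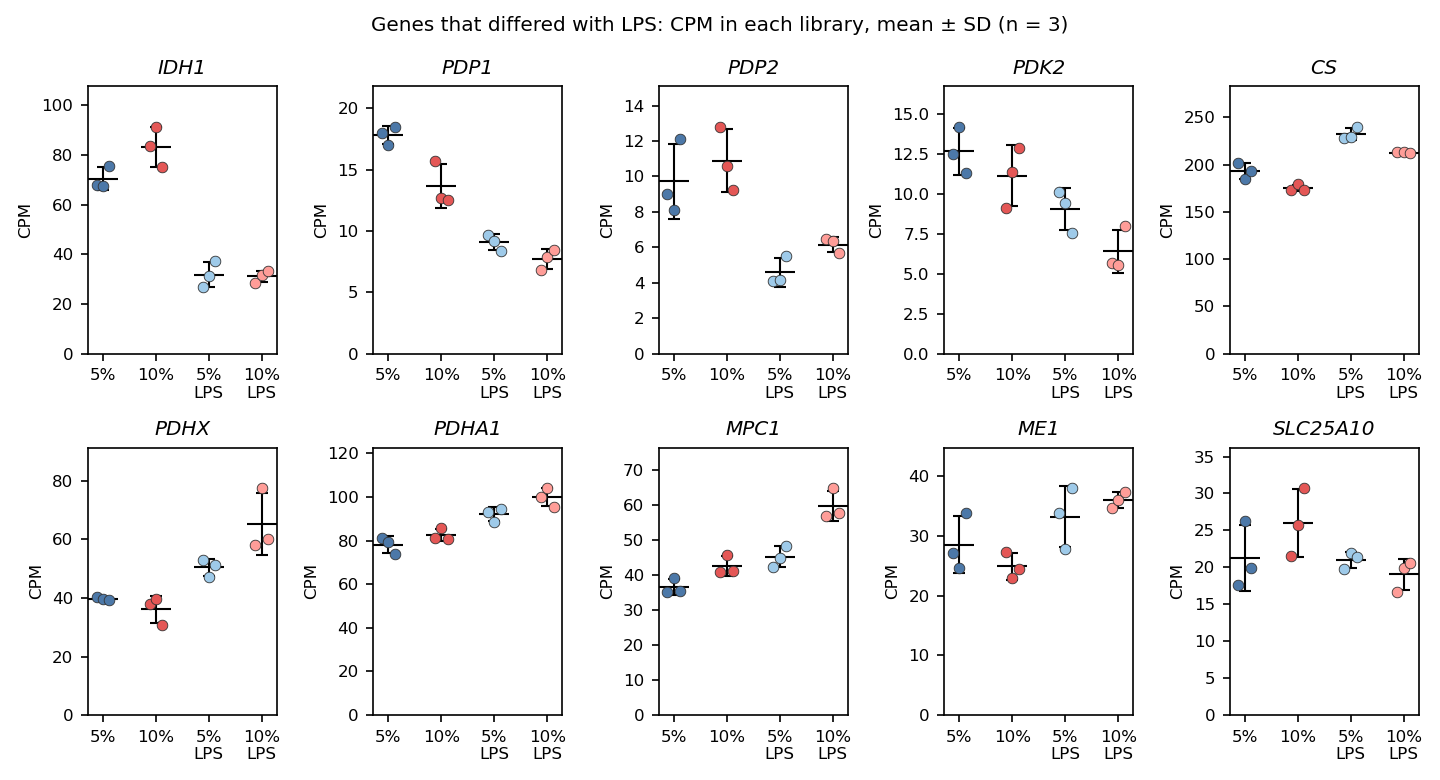
CPM in each library for 10 genes that were called with LPS, by group, with the mean and SD of 3 libraries and every axis starting at 0. IDH1, PDP1, PDP2 and PDK2 sit lower with LPS at each CO2 level, CS, PDHX, PDHA1 and MPC1 higher, while ME1 and SLC25A10 overlap at 5% CO2.

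ME2 and PCK2 rose with CO2 averaged over LPS, and the other malic enzyme among the 38, ME1, had a difference of -0.04 ± 0.09 there (adjusted p = 0.811). ME2, which turns malate into pyruvate in mitochondria, was at 58.2, 62.8 and 67.9 CPM at 5% CO2, 81.7, 85.5 and 75.7 at 10% CO2, 65, 76.7 and 68.2 at 5% CO2 with LPS, and 85.3, 101 and 83.5 at 10% CO2 with LPS. The CO2 levels did not overlap, without LPS or with it. ME2 rose with CO2 in the presence of LPS, by 0.36 ± 0.10 (adjusted p = 0.0282), and averaged over LPS, by 0.36 ± 0.07 (adjusted p = 0.00221). Without LPS the difference was also 0.36 ± 0.10 but was not called (adjusted p = 0.0693). It was called there by DESeq2 (adjusted p = 0.0213), without the low-count filter (0.0213), with the replicate block (0.0282) and with the GC correction (0.0253). The call with LPS was lost with the GC correction (0.26, adjusted p = 0.0636) and without 5% CO2 with LPS replicate 1 or 3 or 10% CO2 with LPS replicate 2 (up to 0.166). The averaged call held in every alternative setting.

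PCK2, the mitochondrial enzyme that makes phosphoenolpyruvate from oxaloacetate, was at 53.2, 53.1 and 59.6 CPM at 5% CO2, 65.1, 70.9 and 87.1 at 10% CO2, 57.3, 53.2 and 67.1 at 5% CO2 with LPS, and 64.7, 71.5 and 71.1 at 10% CO2 with LPS. The CO2 levels were apart without LPS and overlapped with it. Averaged over LPS, PCK2 rose by 0.33 ± 0.08 (adjusted p = 0.00941), and its single differences were 0.43 ± 0.11 without LPS (adjusted p = 0.06) and 0.22 ± 0.11 with LPS (adjusted p = 0.222). The difference without LPS was called by DESeq2 (adjusted p = 0.0176), without the low-count filter (0.00364), with the replicate block (0.0146) and with the GC correction (0.0178). It was also called without 10% CO2 replicate 1 (0.0202) or 5% CO2 with LPS replicate 3 (0.0482). ME1, the cytosolic malic enzyme that yields NADPH, was at 27.2, 24.6 and 33.8 CPM at 5% CO2, 33.9, 27.9 and 38 at 5% CO2 with LPS, 27.4, 22.9 and 24.5 at 10% CO2, and 34.7, 36.1 and 37.3 at 10% CO2 with LPS. It rose with LPS at 10% CO2, by 0.53 ± 0.13 (adjusted p = 0.00293), in every alternative setting. At 5% CO2 the groups overlapped and the difference was 0.22 ± 0.13 (adjusted p = 0.227), and the 2 LPS differences were not shown to be unequal (interaction 0.31 ± 0.18, adjusted p = 0.895). PC, which makes oxaloacetate from pyruvate, was at 5.73, 9.91 and 5.47 CPM at 5% CO2, 5.08, 7.90 and 6.73 at 5% CO2 with LPS, 6.5, 8.35 and 8.11 at 10% CO2, and 5.14, 8.12 and 8.01 at 10% CO2 with LPS. Its 4 groups overlapped, and LRFN4 on the opposite strand, with 513% as many counts, shares 10.5% of its exon bases.

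GOT1 was the gene with the smallest p among the 38 for CO2 without LPS and for CO2 averaged over LPS, while MPC1 had it for CO2 with LPS. GOT1 (chromosome 10, 99396870 to 99430624) encodes the cytosolic aspartate transaminase, which links glutamate to oxaloacetate and works in the malate-aspartate shuttle with its mitochondrial counterpart GOT2. It was at 11.3, 12.2 and 12.7 CPM at 5% CO2, 16.4, 19.0 and 19.7 at 10% CO2, 14.7, 16.5 and 14.6 at 5% CO2 with LPS, and 20.2, 21.1 and 21.7 at 10% CO2 with LPS. The CO2 levels did not overlap, without LPS or with it. GOT1 rose with CO2 by 52.4% without LPS (log2 0.61 ± 0.11, adjusted p = 0.018), by 37.7% with LPS (0.46 ± 0.11, adjusted p = 0.0159) and by 44.9% averaged over LPS (0.53 ± 0.08, adjusted p = 0.000357). The call without LPS was lost when only its 2 groups were fitted, and without 5% CO2 replicate 1 or 2 or 10% CO2 replicate 2 (up to 0.146). The call with LPS was lost without 5% CO2 with LPS replicate 1 or 10% CO2 with LPS replicate 2 or 3 (up to 0.0738), and the averaged call held in every alternative setting.

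GOT1 also rose with LPS at 5% CO2, by 0.34 ± 0.11 (adjusted p = 0.0322), a comparison that shares the 5% CO2 libraries with CO2 without LPS. That call was lost without the low-count filter, when only its 2 groups were fitted, and without 5% CO2 replicate 1 or 2 or 5% CO2 with LPS replicate 2 (up to 0.125). GOT2 was at 33.9, 35.9 and 36.1 CPM at 5% CO2, 41.2, 45.9 and 40.9 at 10% CO2, 33.5, 37.6 and 38.3 at 5% CO2 with LPS, and 42.6, 45.7 and 47.2 at 10% CO2 with LPS. Here too the CO2 levels did not overlap, but the difference without LPS, 0.27 ± 0.09, was not called (adjusted p = 0.132). GOT2 rose with CO2 averaged over LPS, by 0.29 ± 0.07 (adjusted p = 0.00616), in every alternative setting, and with LPS present by 0.31 ± 0.09 (adjusted p = 0.0433), a call lost in 8 of 12 fits that left out 1 library. GLUD1, the glutamate dehydrogenase, was at 156, 151 and 149 CPM at 5% CO2, 177, 166 and 148 at 10% CO2, 158, 162 and 161 at 5% CO2 with LPS, and 163, 174 and 161 at 10% CO2 with LPS. It was called in no comparison, and reads of its near-identical copy GLUD2 cannot be told apart from its own with certainty.

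**Figure D3:**
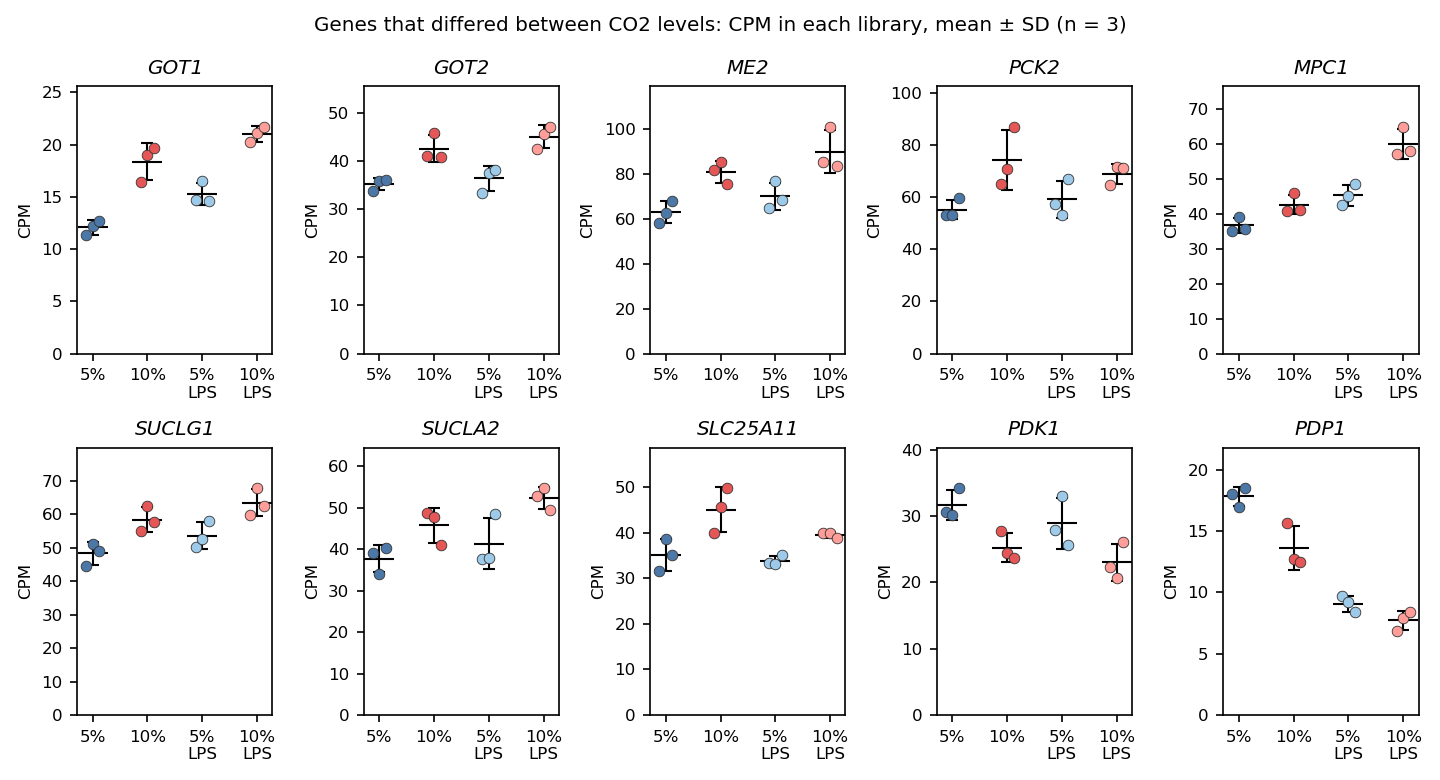
CPM in each library for genes that were called with CO2, by group, with the mean and SD of 3 libraries and every axis starting at 0. GOT1 runs from 11.3 to 12.7 at 5% CO2 and from 16.4 to 19.7 at 10% CO2, and ME2, GOT2 and SUCLA2 are also apart between CO2 levels in both LPS states.

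The genes of citrate export were not called, while 2 dicarboxylate carriers were. ACLY, which splits exported citrate into acetyl-CoA and oxaloacetate, was at 352, 384 and 375 CPM at 5% CO2, 340, 353 and 379 at 10% CO2, 348, 409 and 388 at 5% CO2 with LPS, and 365, 353 and 379 at 10% CO2 with LPS. Its differences were between -0.06 and 0.04, each with a standard error of 0.08. SLC25A1, the citrate carrier, was at 159, 226 and 200 CPM at 5% CO2, 141, 200 and 193 at 10% CO2, 182, 207 and 231 at 5% CO2 with LPS, and 152, 186 and 184 at 10% CO2 with LPS. Groups of both genes overlapped in every single comparison. SLC25A11, the oxoglutarate-malate carrier of the shuttle, was at 31.6, 38.6 and 35.1 CPM at 5% CO2, 39.8, 45.6 and 49.7 at 10% CO2, 33.4, 33.1 and 35.0 at 5% CO2 with LPS, and 40.0, 39.8 and 38.8 at 10% CO2 with LPS. Both CO2 comparisons were free of overlap, but neither was called (adjusted p = 0.0752 without LPS and 0.173 with it). It rose with CO2 averaged over LPS, by 0.29 ± 0.07 (adjusted p = 0.00973), in every alternative setting. RNF167 on the opposite strand shares 9.14% of its exon bases and held 91.1% as many counts; its part was not tested.

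SLC25A10, the dicarboxylate carrier that exchanges malate or succinate for phosphate, was at 17.6, 26.3 and 19.9 CPM at 5% CO2, 19.8, 21.9 and 21.4 at 5% CO2 with LPS, 21.6, 25.7 and 30.7 at 10% CO2, and 16.6, 19.9 and 20.6 at 10% CO2 with LPS. It fell with LPS at 10% CO2, by a log2 difference of -0.45 ± 0.15 (adjusted p = 0.023). That call was lost with the GC correction (-0.24, adjusted p = 0.0941) and without 10% CO2 replicate 2 or 3 or 10% CO2 with LPS replicate 1 (up to 0.136). A gene without a symbol on the same strand shares 46.6% of SLC25A10's exon bases and held 0% as many counts, and its part was not tested. Whether reads over the shared bases were counted for SLC25A10 or for neither gene is not known, so the level of SLC25A10 is uncertain.

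Sequences before the RefSeq start of 3 genes that rose with CO2 are shown, since 2 of them held a motif that few promoters hold. RefSeq promoters (GRCh38.p14) were matched for 36 of the 38 genes, and the 250 bases before each start were searched on both strands for 7 motifs. The core of the C/EBP-ATF response element, TGATGNAA, was in 3.15% of 35097 promoters and in 2 of the 36, GOT1 and SLC25A11. Promoters are counted by start, and a gene may have several. A gene of the 36 was counted if any of its promoters held the motif, so the 2 counts are in unlike units, for every motif. The NRF1 motif was in 5.08% of promoters and in 6 of the 36 (GLUD1, IDH3A, IDH3G, MPC2, SLC25A11 and SUCLA2), of which 3 are among the 10 genes called higher with CO2 on average. The motifs were chosen with the calls known, and a match is a description of letters, not of binding. Each sequence runs 5′ to 3′ along the gene's strand, which is the minus strand for all 3, and capitals mark the motif, read on the opposite strand of the gene in each case. The windows are chr10:99430625-99430874 for GOT1, chr17:4940099-4940128 for SLC25A11 and chr13:48001292-48001321 for SUCLA2, and the first capital lies at -198, -71 and -38 bases from the RefSeq start. The GOT1 window lies outside the gene as the count tables give it, whereas those of SLC25A11 and SUCLA2 lie inside the span of the gene in the tables, which begins further upstream.
GOT1: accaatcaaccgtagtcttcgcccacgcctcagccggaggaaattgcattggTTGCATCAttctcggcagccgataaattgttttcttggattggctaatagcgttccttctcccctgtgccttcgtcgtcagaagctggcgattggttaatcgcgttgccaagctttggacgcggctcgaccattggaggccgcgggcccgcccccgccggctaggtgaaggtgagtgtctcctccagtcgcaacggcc
SLC25A11: ttctcgcacgcTTCCATCAagctcctcctt
SUCLA2: tgtcgcctgtGCGCCTGCGCgcggcgccga

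The other motifs were counted in the same unlike units. The CCAAT box was in 22 of the 36 and in 32% of promoters, and the ETS core CCGGAA in 7 of the 36 and in 14.5%. Of the 10 genes called higher with CO2 on average, the CCAAT box was in 5 and the ETS core in 2. Of the 4 searched genes called lower with LPS, they were in 3 and 0. The E-box CACGTG was in 3 (PDHB, PDK2 and PDP2) and in 6.34% of promoters. It was in 2 of the 4 genes lower with LPS (PDK2 and PDP2) and in 0 of the 10 higher with CO2. PDP1, which also fell with LPS, had no promoter entry and was not searched. The cAMP response element TGACGTCA was in 0 of the 36 and in 1.65% of promoters. A kappaB motif was in 2 (ME1 and SUCLG1) and in 1.73% of promoters, in 1 of the 10 and 0 of the 4. The C/EBP-ATF and NRF1 motifs were also in 0 of the 4.

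No gene of the 38 differed in its LPS response between CO2 levels at the threshold. The interaction gave 0 calls among the 38 (edgeR), against 0.0244% of all genes tested, with 2 of the 38 at an unadjusted p under 0.05. DESeq2 also gave 0 calls, with 1 at an unadjusted p under 0.05. PDHX had the smallest p, with a log2 difference of 0.51 ± 0.16 (adjusted p = 0.567), followed by SLC25A10 at -0.44 ± 0.21 (adjusted p = 0.826). The LPS response of PDHX and that of SLC25A10 were therefore not shown to differ between 5% and 10% CO2.

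Among paralogues that catalyse the same step, the mix was compared as the share of 1 gene in the summed level per exon length (RPKM, CPM per kilobase). An exact two-sided permutation test within the levels of the other factor was used, over 14 tests and with 0.005 as the smallest p it can give. The share of IDH1 in IDH1 and IDH2 was 14.1% ± 1.32 (SD, n = 3) at 5% CO2, 17.9% ± 2.99 at 10% CO2, 6.34% ± 0.61 at 5% CO2 with LPS and 7.43% ± 0.0806 at 10% CO2 with LPS. The LPS difference was -9.13 points (exact permutation p = 0.005, adjusted 0.0233). The share of GOT1 in GOT1 and GOT2 was 34.7% ± 0.558 at 5% CO2, 40.1% ± 2.42 at 10% CO2, 39.4% ± 1.96 at 5% CO2 with LPS and 42.0% ± 0.415 at 10% CO2 with LPS. It was 3.98 points higher with CO2 (exact permutation p = 0.005, adjusted 0.0233).

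The share of PDP1 in the phosphatase pair was 73.4% ± 3.45 at 5% CO2, 65.2% ± 1.42 at 10% CO2, 74.8% ± 4.59 at 5% CO2 with LPS and 65.1% ± 3.79 at 10% CO2 with LPS. The CO2 difference was -8.94 points (exact permutation p = 0.005, adjusted 0.0233), while LPS, which lowered both phosphatases, left a difference of 0.64 points (adjusted 0.808). The share of SUCLA2 beside SUCLG2 was 39.4% ± 1.3 at 5% CO2, 44.5% ± 1.59 at 10% CO2, 38.9% ± 2.87 at 5% CO2 with LPS and 42.7% ± 0.944 at 10% CO2 with LPS, 4.43 points higher with CO2 (exact permutation p = 0.01, adjusted 0.035). In 3 exact permutation tests the adjusted p was at the threshold of 0.05: the share of ME1 beside ME2 with CO2 (-6.69 points), that of IDH1 with CO2 (2.43 points) and that of GOT1 with LPS (3.32 points). The share of PDK1 among the 3 kinases differed by -2.91 points with CO2 (adjusted 0.187), and that of MDH1 beside MDH2 by 0.966 points (adjusted 0.259). With 1 library left out, adjusted p reached 0.0525 for IDH1 with LPS without 10% CO2 with LPS replicate 1 or 2, and for SUCLA2 with CO2 without the same libraries. The same value was reached for GOT1 with CO2 without any library of 10% CO2 with LPS, and for PDP1 with CO2 without 10% CO2 replicate 2 or 10% CO2 with LPS replicate 1 or 2. With so few libraries the permutation p can take only certain values. Over all alternatives the differences were -13.1 to -8.64 points for IDH1 with LPS and 3.78 to 5.21 for SUCLA2 with CO2. They were 3.3 to 4.45 for GOT1 and -10.3 to -8.0 for PDP1 with CO2.

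**Figure D4:**
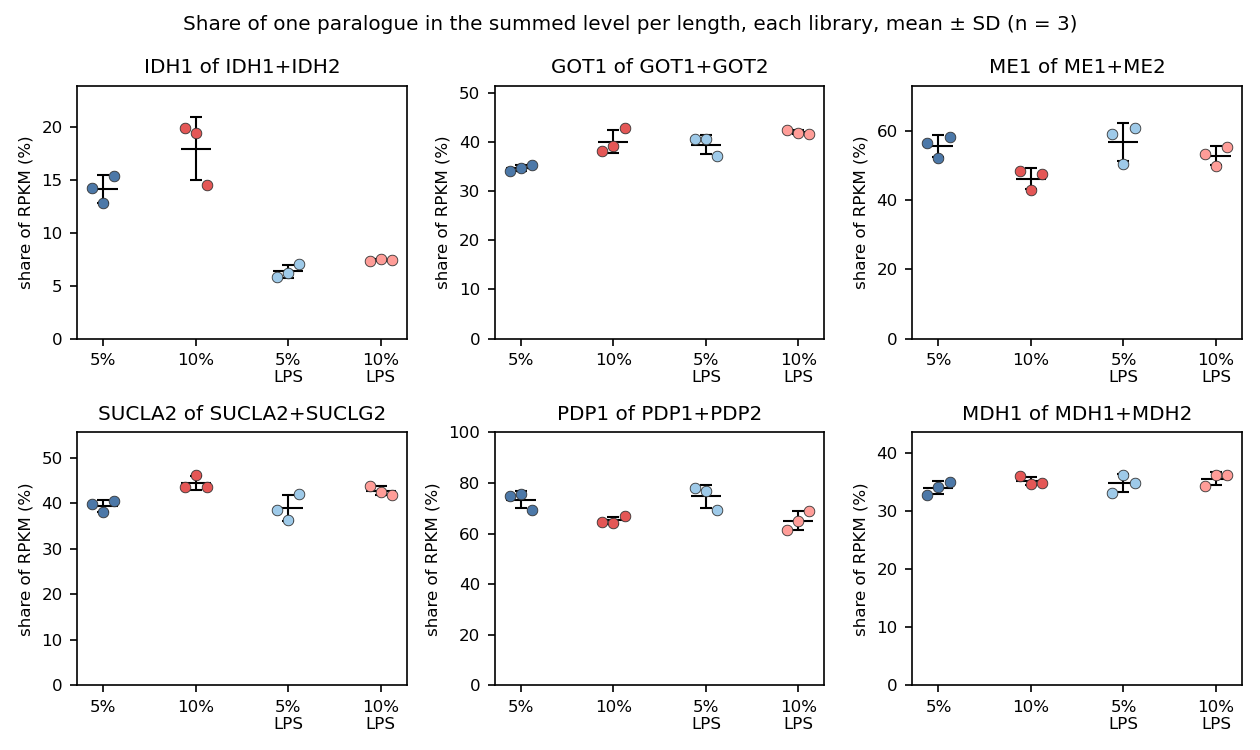
Share (%) of 1 paralogue in the summed RPKM of its family in each library, by group, with the mean and SD of 3 libraries. The IDH1 share is 12.8 to 19.9% without LPS and 5.81 to 7.5% with it, and the PDP1 share is 69.5 to 77.9% at 5% CO2 and 61.4 to 68.9% at 10% CO2.

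Per exon length, SLC25A1, IDH2, ACLY and MDH2 had the highest mean levels at 5% CO2, and PC and the kinases and phosphatases of pyruvate dehydrogenase the lowest. The length counts every annotated exon of a gene, 14883 bases for PDK1, so the order depends on it. In mean CPM at 5% CO2, PDK1 (31.6) was above IDH3A (28.1) and GOT1 (12.1), which rank above it per length. At 5% CO2 the mean level was 93 RPKM for SLC25A1, 91 for IDH2, 71 for ACLY and 67.5 for MDH2, and 43.2 for GLUD1. The ranges of SLC25A1 (75.7 to 108) and IDH2 (86.7 to 98) overlapped, as did those of ACLY (67.4 to 73.7) and MDH2 (64.3 to 72.4). At the low end were PDP1 at 3.18, PDK3 at 2.51, PDK2 at 2.31, PDK1 at 2.13, PC at 1.19 and PDP2 at 1.16 RPKM. PDP1 (3.03 to 3.3) was above PDK3 (2.39 to 2.61), whereas PDK3 and PDK2 (2.06 to 2.59) overlapped, as did PC (0.923 to 1.67) and PDP2 (0.967 to 1.45). With LPS, IDH1 went from 14.9 to 6.75 RPKM at 5% CO2 and from 17.7 to 6.59 at 10% CO2.

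**Figure D5:**
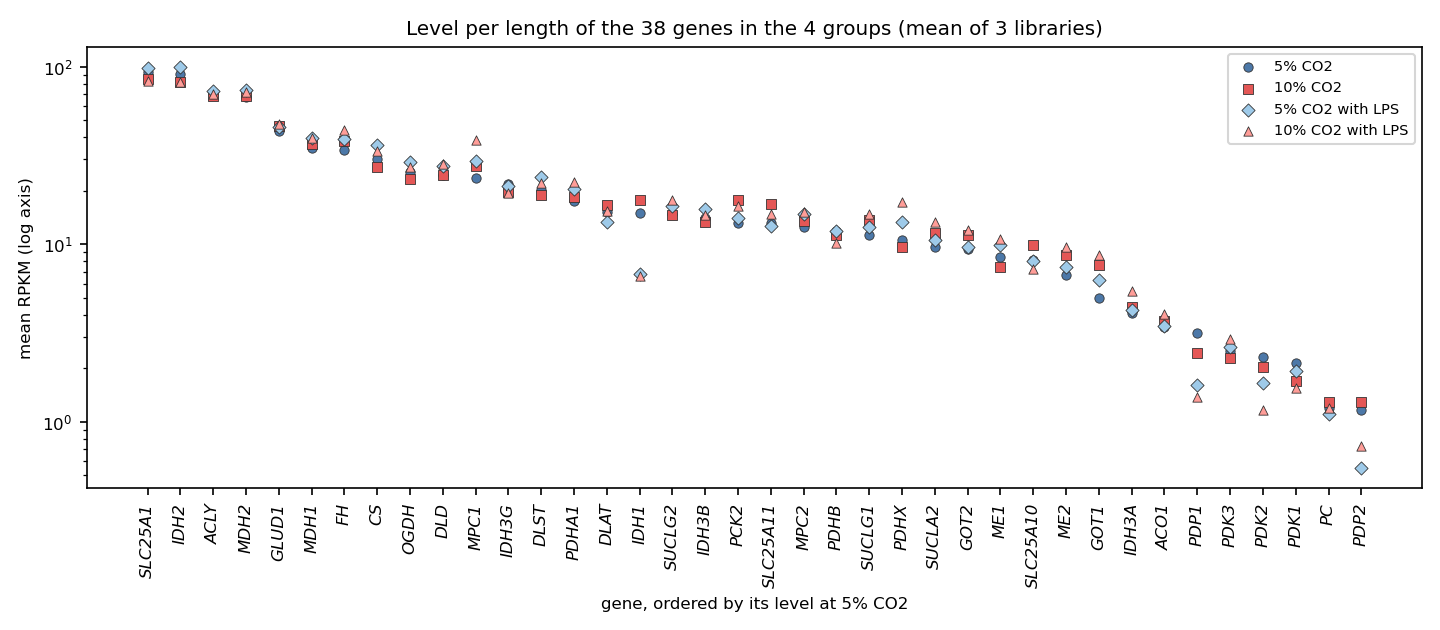
Mean RPKM of 3 libraries (logarithmic axis) of the 38 genes in each group, ordered by the level at 5% CO2. Levels run from 93 RPKM for SLC25A1 to 1.16 for PDP2, and the points of IDH1, PDP1 and PDP2 with LPS lie below those without.

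A list of 40 further genes of the same pathways, of which 37 were tested, was counted beside the 38. With CO2 averaged over LPS, 6 rose and 5 fell, 29.7%, against 16.7% of all genes. With LPS, 4 rose and 6 fell at 5% CO2 (27%, against 24.9% of all genes), and 7 rose and 10 fell at 10% CO2 (45.9%, against 35.2%). Of those called with CO2 on average, the glutamine and neutral amino acid importer SLC1A5 rose by 0.27 ± 0.05 (adjusted p = 0.00203) and the aspartate-glutamate carrier SLC25A12 by 0.36 ± 0.07 (adjusted p = 0.003). GLUL, which makes glutamine from glutamate, was lower (-0.37 ± 0.07, adjusted p = 0.00277), as were DHTKD1 (-0.60 ± 0.11, adjusted p = 0.00185), a relative of OGDH that acts in lysine breakdown, and PDPR (-0.30 ± 0.07, adjusted p = 0.0105), the regulatory subunit of the phosphatase.

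With LPS at 5% CO2, the fourth kinase PDK4 fell from a mean of 6.99 to 0.834 CPM (-3.07 ± 0.36, adjusted p = 4.82e-06). LIPT2, which works in the lipoylation that the dehydrogenase complexes need, fell from 2.18 to 0.677 CPM (-1.68 ± 0.31, adjusted p = 0.0005), and the succinate dehydrogenase assembly factor SDHAF1 from 12.3 to 7.69 CPM (-0.68 ± 0.14, adjusted p = 0.00123). The amino acid importer SLC38A2 rose by 0.63 ± 0.09 (adjusted p = 3.34e-05) and SLC25A12 by 0.51 ± 0.10 (adjusted p = 0.00107). ACOD1, which makes itaconate from cis-aconitate, went from 0.0309 CPM, under the level of 3 counts in a library, to 3.46 CPM. It passed the low-count filter only through its libraries with LPS. Its test was therefore not independent of that selection, and no p-value is given, although it is among the genes counted above as risen with LPS.

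Exon GC content of the 38 genes ran from 36.2 to 68.7%, with a median of 46%. Across the 38 genes in the same 12 libraries, Spearman's correlation of GC content with the log2 difference was -0.02 for CO2 without LPS, -0.35 for CO2 with LPS, -0.17 for LPS at 5% CO2, -0.37 for LPS at 10% CO2 and -0.54 for the interaction. Over 16394 genes it was -0.05, -0.31, -0.09, -0.24 and -0.31. After a correction for GC content the average over LPS gave 14 calls among the 38, 10 of them higher. The share of all genes called after that correction is not given, and the part of GC content in the results was not tested.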

How the data were processed

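The authors deposited 1 table of raw counts per gene for each library, made with Trimmomatic 0.36, STAR 2.5.2b and featureCounts of Subread 1.5.2 on GRCh38, per the submitters' processing notes. The strand setting, the handling of multimapping reads and the annotation release were not given in the sources used here, so reads of overlapping genes are uncertain. Groups and replicate numbers came from the sample titles. Replicates were distinct libraries, with a chi-square of 8.49 to 28.2 per degree of freedom between any pair in a group, and 0 columns were left out.

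Genes were kept by edgeR's filterByExpr by group (16402 genes), scaled by TMM, and tested with the robust quasi-likelihood F test of edgeR 4.0.16 in R 4.3.3 on 4 group means over all 12 libraries. P-values were adjusted (Benjamini-Hochberg) over all genes, and the common biological coefficient of variation was 10.7%. CPM is TMM-scaled, and RPKM divides it by the exon length in the tables. Paralogue shares were compared by exact permutation.

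Named with every library were up to 6 called genes per comparison by smallest p, or the smallest p up to 3 where fewer were called, and 1 anchor gene per step. The 38 genes and all lists were chosen with earlier results of these data known, and some listed genes are not reported here. Alternatives were DESeq2 1.42.0, RLE factors, no low-count filter, a mean of at least 5 CPM, a replicate block, only the compared groups, and each library left out. A GC correction, removal of mitochondrial genome genes and shares without length were chosen after seeing the data. The level given for 3 counts covers counting error only.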

Additional observations from a re-analysis of the deposited data

How the results depend on the processing

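Of 42 calls of single genes among the 38, 20 held in every alternative setting, 21 were lost without at least 1 library, and 0 changed sign. The count of calls for CO2 without LPS was 1, and became 4 with DESeq2, 3 without the low-count filter, 0 with only the compared groups and 5 with the GC correction. The share of all genes called is given for the main fit only. Whether these counts, and those below, moved with the calls over all genes is therefore not shown. With 1 library left out, calls ranged from 0 to 4 for CO2 without LPS, 0 to 8 for CO2 with LPS, 5 to 10 for LPS at 5% CO2, 10 to 14 for LPS at 10% CO2 and 9 to 14 for CO2 averaged over LPS, with 0 for the interaction throughout. For CO2 without LPS, leaving out 5% CO2 replicate 1 or 2 or 10% CO2 replicate 2 gave 0, 5% CO2 with LPS replicate 3 gave 2 and 10% CO2 replicate 1 gave 4. For CO2 with LPS, leaving out 5% CO2 with LPS replicate 1 or 10% CO2 with LPS replicate 2 gave 0, 5% CO2 with LPS replicate 2 gave 2, 10% CO2 with LPS replicate 3 gave 3 and 10% CO2 replicate 3 gave 8, and leaving out 5% CO2 with LPS replicate 3 gave 5 higher and 2 lower. For LPS at 5% CO2, leaving out 5% CO2 replicate 1 or 2, or 5% CO2 with LPS replicate 3, gave 5 calls, and leaving out 5% CO2 replicate 3 gave 6. Over all groups, the deviations of same-numbered libraries correlated at -0.136 to 0.29, so the replicate numbers did not pair the libraries throughout. Between 10% CO2 and 10% CO2 with LPS they did, at 0.251, 0.192 and 0.106, each library being closest to its own number, and the replicate 1 libraries correlated at 0.1 to 0.29 in all 6 pairs of groups. With the replicate number as a block, calls were 4 for CO2 without LPS, 8 for CO2 with LPS (6 higher and 2 lower), 10 for LPS at 5% CO2, 14 for LPS at 10% CO2 (13 without it), 15 for CO2 averaged over LPS and 0 for the interaction. The uncalled LPS difference in the PDK1 share, -0.167 points, was 2.34 without division by length and ran from -0.937 to 1.16 with 1 library left out, and that in the PDP1 share, 0.64 points, ran from -0.35 to 1.96. The cause of these shifts was not tested. The lowest library value among the 38 genes was 4.1 CPM (PDP2), above the 0.175 CPM that 3 counts reach.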
